A study of Homo sapiens with 6 samples.

Results

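ATM, ATR, CHEK1, CHEK2, CLSPN, MDC1, RNF8, RNF168, TP53BP1 and RIF1 encode the kinases that signal DNA damage and the proteins that read the resulting marks on chromatin. These 10 genes were taken by name from a table of 63299 gene entries, keeping the entries on assembled chromosomes, and each name matched 1 such entry. All 10 were abundant enough to be tested. They were measured by RNA sequencing in LNCaP, an androgen-dependent human prostate cancer cell line. The 3 knockdown libraries (titled MEP50 KD, Dox+) came from cells with a short hairpin RNA against MEP50 that were given Dox, the inducer doxycycline. The 3 control libraries (titled No KD, Dox-) came from cells without it. MEP50, encoded by WDR77, is the partner of the arginine methyltransferase PRMT5, and the comparison asked which genes change when it is lowered. No library here had Dox without knockdown, so the drug and the knockdown cannot be told apart. The sources used here give neither the hairpin's sequence nor whether the cells were 1 clone, and p-values measure the spread between these libraries.

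As background, ATM responds to broken DNA ends and ATR to single-stranded DNA at stalled replication forks. ATM activates the effector kinase CHK2 (CHEK2), and ATR activates CHK1 (CHEK1) with the help of Claspin (CLSPN), which together hold the cell cycle. On chromatin around a break, MDC1 binds the phosphorylated histone H2AX and recruits the ubiquitin ligase RNF8. RNF168 extends the ubiquitin mark on H2A, 53BP1 (TP53BP1) reads it, and RIF1 acts with 53BP1 to limit the resection of the ends.

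The members split. MDC1 and RNF168 fell and ATM rose, while ATR, RNF8, TP53BP1 and RIF1 had small differences that passed no test. CLSPN, CHEK1 and CHEK2 had lower means in knockdown. They were called when libraries with the same replicate number were treated as pairs but not in the main test, which has no pairs. Also without pairs, a fit that kept genes of low count called all of them, and DESeq2 called CLSPN. In edgeR's quasi-likelihood test with an adjusted p under 0.05 as the threshold, 2 of the 10 were lower, beside 4.88% of all 21101 tested genes, and 1 was higher, beside 2.72%. With the pairs as a block 5 were lower, beside 14.9% of tested genes, and 1 was higher, beside 11.2%. That 1 higher call of 10 is near the share of all tested genes and is not a result about the members. The median log2 fold change (knockdown minus control) of the 10 was -0.37, and that of all tested genes was 0. The ranges of the 2 groups did not overlap for 4 members that were lower in knockdown, beside 17% of tested genes, and for 2 that were higher, beside 13.4%.

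The libraries held 18568002 to 36234784 reads on genes, and values below are CPM, counts divided by the scaled library size. The WDR77 transcript fell from 44.4 ± 6.73 to 13.9 ± 1.16 CPM (SD, n = 3 per group), a log2 fold change of -1.67 (adjusted p 0.00131, edgeR). The 8 markers of the luminal prostate and of LNCaP reported here, such as KLK3, were all present, with a summed level of 6140 to 7600 CPM in control and 3550 to 3850 CPM in knockdown. The 4 basal epithelial markers reached at most 1.11 CPM and the 4 leukocyte markers at most 1.34 CPM in any library, and 1 basal marker had no read. The 5 fibroblast and endothelial markers summed to 23.9 to 46.2 CPM in control and 22.5 to 38.6 in knockdown, and the 4 neuroendocrine markers to 23 to 32 and 13 to 22.1. Of these, 2 of the 5 and 3 of the 4 were abundant enough to be tested. A single gene reached 39 CPM in the first list and 29 CPM in the second, so 1 gene can make most of a sum.

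**Figure D1:**
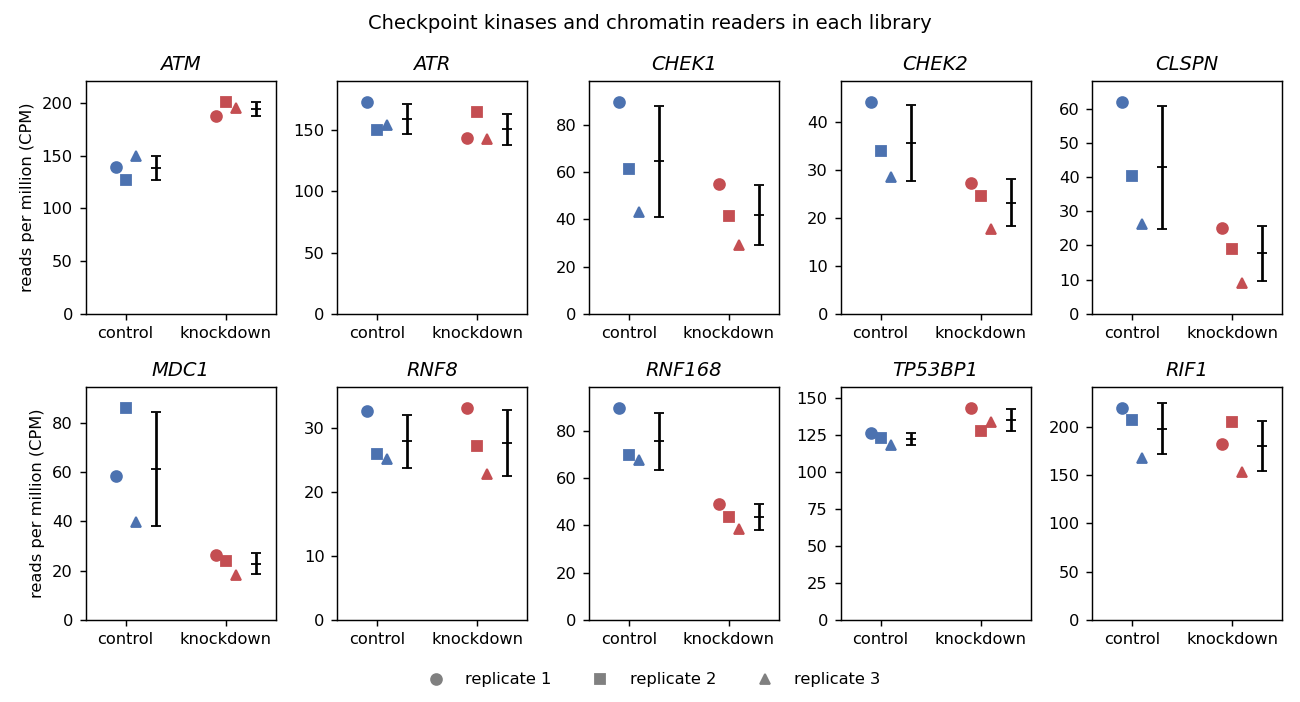
Scaled counts (CPM, linear axis from 0) of each of the 10 genes in each library, with control in blue, knockdown in red, the symbol giving the replicate number and the bar the mean and SD of 3 libraries. ATM lies higher in all 3 knockdown libraries, and MDC1, RNF168, CLSPN and CHEK2 lie lower in all 3, while the groups overlap for CHEK1, ATR, RNF8 and RIF1.

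ATM was the member that rose. The 3 control libraries held 139, 127 and 150 CPM for replicates 1 to 3, from 3595, 3817 and 5250 reads, while the knockdown libraries gave 188, 201 and 195 CPM from 3511, 7417 and 4265 reads. Every knockdown library was above every control library, and both groups were tight. ATM (ENSG00000149311.17, hg38 chromosome 11, 108222484 to 108369102, plus strand) thus went from 139 ± 11.4 to 195 ± 6.28 CPM, 1.40-fold higher with an adjusted p of 0.0381 in edgeR (log2 fold change 0.49, SE 0.12). The call was lost when any of the 6 libraries was left out (adjusted p from 0.068 to 0.142), with log2 fold changes from 0.41 to 0.54. With the pairs as a block its adjusted p was 0.00343.

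ATR, the other apical kinase, held 173, 150 and 154 CPM in the controls and 144, 165 and 143 CPM in the knockdown libraries, in replicate order. The groups overlapped. The log2 fold change was -0.08 (SE 0.12, 95% interval -0.35 to 0.20, adjusted p 0.741, edgeR), so a rise as large as the fitted value of ATM lies outside this interval. The number of ATM reads per ATR read, which needs no scaling between libraries, was 0.808, 0.846 and 0.974 in control and 1.30, 1.22 and 1.36 in knockdown. This ratio did not overlap between the groups, and like the other read ratios below it was chosen after the values were seen and was not tested.

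Of the effector kinases, CHEK1 varied most among replicates of the same group. Control replicates 1 to 3 held 89.8, 61.4 and 43.0 CPM, from 2314, 1845 and 1508 reads, and knockdown replicates 1 to 3 held 55.1, 41.4 and 29.3 CPM, from 1029, 1531 and 639 reads. Knockdown replicate 1 was above control replicate 3, so the groups overlapped, but in each pair of the same number the knockdown library was lower, with log2 ratios of -0.70, -0.57 and -0.56. CHEK1 (ENSG00000149554.12, chromosome 11, 125625136 to 125676255, plus strand) had a log2 fold change of -0.63 (SE 0.29, adjusted p 0.22, edgeR), which was not called. With the pairs as a block it was called (-0.61, SE 0.10, adjusted p 0.00085). The fold change was -0.27 without control replicate 1, the library where CHEK1 was highest.

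CHEK2 (ENSG00000183765.20, chromosome 22, 28687743 to 28742422, minus strand) had the same order of libraries within each group. Its values were 44.2, 34.1 and 28.5 CPM in control and 27.3, 24.6 and 17.7 CPM in knockdown. The groups did not overlap, though control replicate 3 and knockdown replicate 1 nearly met. With a log2 fold change of -0.62 (SE 0.21) its adjusted p was 0.112 in edgeR, and with the block it was 0.00181. Without control replicate 1 it was -0.39. CHEK1 had 2.03, 1.80 and 1.51 reads per CHEK2 read in control and 2.02, 1.68 and 1.65 in knockdown, so the ratio overlapped between groups. Near-identical copies of CHEK2 exist in the genome, and the 4 entries named as CHEK2 pseudogenes held 1 read in all libraries together. How reads that fit several places were treated is not given in the sources used here.

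CLSPN, the gene of the mediator Claspin, had a larger fitted difference than CHEK1, and the gap between the 2 genes was not tested. Control replicates 1 to 3 held 62.0, 40.3 and 26.4 CPM, from 1597, 1210 and 925 reads. Knockdown replicates 1 to 3 held 25.1, 18.9 and 9.11 CPM, from 469, 698 and 199 reads. The groups were apart by little, between 26.4 and 25.1 CPM, and within each group the highest library had over 2 times the lowest. CLSPN (ENSG00000092853.13, chromosome 1, 35720218 to 35769967, minus strand) had a log2 fold change of -1.28 (SE 0.39, adjusted p 0.078, edgeR), not called, and was called with the block (-1.30, SE 0.12, adjusted p 1.23e-05) and by DESeq2 (adjusted p 0.00411). In the 3 pairs the log2 ratios were -1.30, -1.09 and -1.53. CLSPN reads per CHEK1 read were 0.690, 0.656 and 0.613 in control and 0.456, 0.456 and 0.311 in knockdown, without overlap.

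MDC1, the chromatin mediator, had the lowest fitted value of the 10 with all 6 libraries. CLSPN was lower than MDC1 without control replicate 2 (-1.34 against -1.12) and without knockdown replicate 1 (-1.61 against -1.54), and the gap between these genes was not tested. Control replicates 1 to 3 held 58.2, 85.8 and 39.7 CPM, from 1501, 2576 and 1390 reads, and knockdown replicates 1 to 3 held 26.4, 24.0 and 18.1 CPM, from 493, 887 and 396 reads. All knockdown libraries were below all control libraries, and control replicate 2 stood above the other controls. MDC1 (ENSG00000137337.14, chromosome 6, 30699807 to 30717889, minus strand) fell 2.68-fold, from 61.2 ± 23.2 to 22.8 ± 4.25 CPM, with an adjusted p of 0.0169 in edgeR and 2.45e-05 under the block (log2 fold change -1.42, SE 0.27). Its call was lost without knockdown replicate 2 (adjusted p 0.0696) or knockdown replicate 3 (0.0568). Dropping control replicate 2 gave -1.12 (adjusted p 0.0276). MDC1 has 7 further entries on alternative scaffolds of the same region, and these held 0 reads. MDC1-AS1, annotated on the other strand across 8.69% of the exon bases of MDC1, fell as well (log2 fold change -1.30, adjusted p 0.0306). The strand setting of the counting is not given, so reads of this pair cannot be told apart in the shared part.

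Of the 2 ubiquitin ligases RNF168 fell and RNF8 was not called. RNF168 held 89.5, 69.7 and 67.7 CPM in control replicates 1 to 3 and 49.2, 43.4 and 38.3 CPM in knockdown, from 2306, 2094, 2370, 919, 1607 and 837 reads. The groups were well apart. RNF168 (ENSG00000163961.4, chromosome 3, 196468783 to 196503768, minus strand) fell 1.73-fold (log2 fold change -0.79, SE 0.16, adjusted p 0.0194, edgeR; 0.000115 with the block). The call was lost without knockdown replicate 2 (0.0848), knockdown replicate 3 (0.0731) or control replicate 1 (0.0615). CTD-2002J20.1, on the other strand across 1.53% of its exon bases, also fell (-1.14, adjusted p 0.032).

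RNF8, which acts before RNF168, held 32.6, 25.8 and 25.1 CPM in control and 33.0, 27.1 and 22.7 CPM in knockdown. The groups overlapped fully, and the log2 fold change was -0.01 (SE 0.18, 95% interval -0.42 to 0.40, adjusted p 0.976, edgeR). RNF168 reads per RNF8 read were 2.75, 2.70 and 2.70 in control and 1.49, 1.6 and 1.69 in knockdown. The spread of this ratio within a group was small (SD 0.0268 in control and 0.0981 in knockdown) beside the distance between the groups. MDC1 reads per RNF8 read were 1.79, 3.32 and 1.58 in control and 0.800, 0.884 and 0.798 in knockdown, again without overlap.

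The 2 readers at the end of the axis passed no test. TP53BP1 held 126, 123 and 118 CPM in control and 143, 128 and 134 CPM in knockdown. The groups did not overlap, but the distance was small (log2 fold change 0.14, SE 0.11, 95% interval -0.11 to 0.39, adjusted p 0.467, edgeR). RIF1 held 219, 207 and 168 CPM in control and 182, 205 and 153 CPM in knockdown, which overlapped (-0.13, SE 0.15, 95% interval -0.48 to 0.21, adjusted p 0.632). TUBGCP4 on the other strand shares 28.7% of the exon bases of TP53BP1, and RP11-383G6.4 shares 16.4% of those of ATR, so part of their reads could belong to these neighbours. Smaller overlaps include RP11-435D7.3 with CLSPN (5.17%) and HSCB with CHEK2 (7.27%), both on the other strand. STT3A, at 329 CPM in control, shares 1.22% of the exon bases of CHEK1 on the same strand. The log2 fold changes of RP11-435D7.3, HSCB and STT3A were -1.35, 0.06 and -0.52, none called in edgeR.

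**Figure D2:**
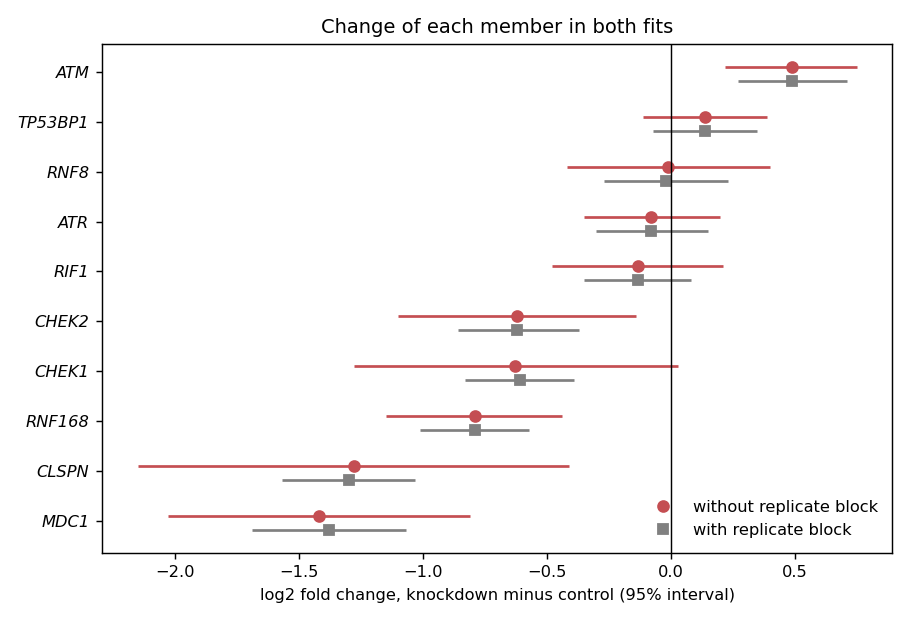
Log2 fold change (knockdown minus control) of each member with its 95% interval, in edgeR without the replicate block (red circles) and with it (grey squares). MDC1, CLSPN, RNF168, CHEK1 and CHEK2 lie between -1.42 and -0.61 in both fits with narrower intervals under the block, and ATM lies at 0.49 in both.

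Per length, control levels of the members lay within a few fold of each other. In FPKM, that is CPM per kilobase of annotated exon, control levels ran from 4.23 ± 0.63 for RNF8 to 14.1 ± 2.25 for RNF168. Between these lay, from the lowest, ATM at 6.22 ± 0.51, MDC1 at 7.59 ± 2.88, CLSPN at 7.93 ± 3.31 and CHEK2 at 8.59 ± 1.92. TP53BP1 at 9.41 ± 0.299, CHEK1 at 9.87 ± 3.59, RIF1 at 10.9 ± 1.46 and ATR at 12.7 ± 0.963 followed. RNF8 was below ATM in every control library, and from ATM upward the control ranges of neighbours in this order overlapped or, for RIF1 and ATR, met at 12.0. In knockdown MDC1 at 2.83 ± 0.527 and CLSPN at 3.27 ± 1.49 were the lowest, below RNF8 at 4.20 ± 0.784, while ATM at 8.72 ± 0.281 was above CHEK1 at 6.39 ± 1.97.

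Promoter sequence was looked at because CLSPN, CHEK1, CHEK2, MDC1 and RNF168 shared a direction. Windows from 250 bases before to 50 after the start site (RefSeq, GRCh38.p14) were found for all 10 members, 13 windows in all. Words were searched on both strands: the E2F-type words TTTGGCGC, TTTCCCGC, TTTCGCGC and TTTGCCGC, the cell cycle homology word TTTGAA, and CCAAT, which NF-Y binds. CLSPN was the only member with an E2F-type word, which 3.31% of 35116 windows hold. CLSPN, CHEK2 and 1 of the overlapping windows of CHEK1 each had CCAAT 3 times, where 3.26% of windows have it at least 3 times. The window of MDC1 and 1 of the 2 windows of ATM had it 2 times, where 10.8% have at least 2. The windows below show these words in capitals on the gene's own strand, where CCAAT on the other strand reads ATTGG and the E2F-type word of CLSPN reads GCGGGAAA.
CLSPN, E2F-type word, chr1:35769965-35769994, minus strand: actctggctggGCGGGAAAgcaagaacagc
CLSPN, CCAAT, chr1:35770080-35770109, minus strand: gggtaataggagATTGGgcggccagaggcg
CLSPN, CCAAT, chr1:35770055-35770084, minus strand: aggcgctgcgtgATTGGtgggtcggaaggg
CLSPN, CCAAT, chr1:35770007-35770036, minus strand: agccccctctggATTGGtgcaaaccatctg
CHEK2, CCAAT, chr22:28742002-28742031, minus strand: ctaatgttgctgATTGGctggggagtcgag
CHEK2, CCAAT, chr22:28741873-28741902, minus strand: ctgctgctcctcATTGGtccggcggcaggg
CHEK2, CCAAT, chr22:28741843-28741872, minus strand: gagggggttttgATTGGctgagggtggagt
CHEK1, CCAAT, chr11:125626112-125626141, plus strand: ctagcgcaggggATTGGagagactcctgcg
CHEK1, CCAAT, chr11:125626318-125626347, plus strand: atggggatgggaATTGGaattgagcaattg
CHEK1, CCAAT, chr11:125626332-125626361, plus strand: tggaattgagcaATTGGgaggaggcgctgc
MDC1, CCAAT, chr6:30717483-30717512, minus strand: ccttggagctgcCCAATcgacgtgcattat
MDC1, CCAAT, chr6:30717318-30717347, minus strand: cagcggcagaagCCAATcagcaaataagct
MDC1, TTTGAA, chr6:30717394-30717423, minus strand: agacaccacctaTTTGAActctaagggggc
ATM, CCAAT, chr11:108223257-108223286, plus strand: ctccccagaccgCCAATctcatgcacccct
ATM, CCAAT, chr11:108223345-108223374, plus strand: gtgcttagcggacttggCCAATaacctcct

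Whether the words go with the direction of change was not tested. CCAAT was in 34.6% of all windows. ATM, which rose, had it 2 times in 1 window and 1 time in its other, and RNF8, TP53BP1 and RIF1, which were not called, had it at 1 place each. RNF168, which fell, and ATR had none of the words searched. Over all windows of a gene, ATM had CCAAT at 3 places, as had CLSPN, CHEK1 and CHEK2. TTTGAA, in 15.2% of windows, was in those of MDC1, ATM and RIF1. Not shown above are the CCAAT in the other window of ATM, the TTTGAA of ATM and all places of RNF8, TP53BP1 and RIF1. A match is a description of these letters and was not tested as a binding site.

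Levels of cell cycle genes were set beside the members, because CHEK1 and CLSPN are made in dividing cells. The median log2 fold change was -0.90 over 20 S phase genes and -1.05 over 18 mitosis genes. In edgeR 8 of the 20 and 3 of the 18 were called lower and 0 higher, and with the block 19 and 18 were lower, beside the shares of all tested genes given above. Of the S phase list, 1 gene was lower when knockdown replicate 2 was dropped, 3 when knockdown replicate 3 or control replicate 1 was, 4 when control replicate 2 was and 10 for either remaining library. Of the mitosis list, 12 genes were lower when knockdown replicate 1 was dropped, 5 when control replicate 3 was, 0 when knockdown replicate 2 was and 2 for each of the remaining libraries. The smallest p-values were those of RFC3 (-1.50, adjusted p 0.00324, edgeR) and RRM2 (-2.10, 0.0118) in the first list and ANLN (-1.88, 0.0139) and MKI67 (-1.57, 0.0142) in the second, and without knockdown replicate 2 only RFC3 of these 4 was called. Against the mean over the 6 libraries, the S phase median was 0.85, 0.58 and 0.05 for controls 1 to 3, then -0.11, -0.34 and -0.97 for knockdown replicates 1 to 3. CLSPN was 1.27, 0.65 and 0.04 in the controls and -0.03, -0.44 and -1.49 in knockdown, and CHEK2 was 0.64, 0.27, 0.01, -0.05, -0.20 and -0.67. The highest and the lowest library were therefore the same for CLSPN, CHEK2, CHEK1, RNF168 and the S phase list, namely control replicate 1 and knockdown replicate 3. This was also so for RIF1 (0.22 and -0.29) and ATR (0.16 and -0.11), which were called in neither fit. MDC1 was highest in control replicate 2 (1.24), and ATM was lowest there (-0.37). In bulk RNA, fewer cells in a phase and less RNA per cell cannot be told apart, and the part of the cell cycle genes in these changes was not tested.

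**Figure D3:**
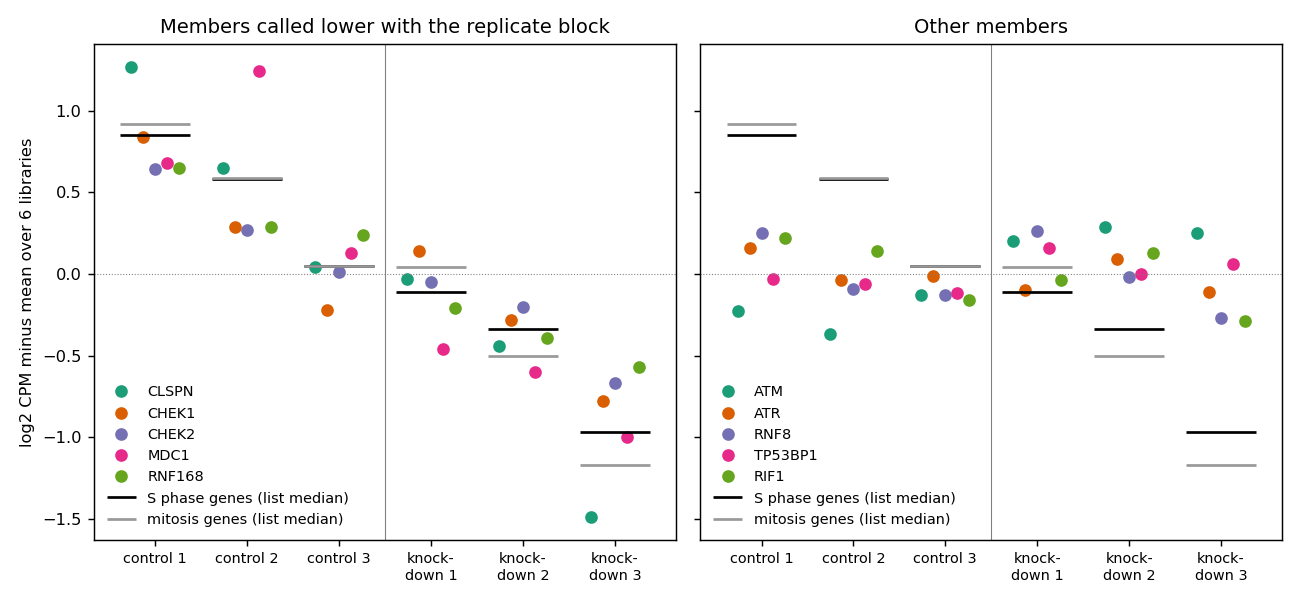
Log2 CPM of each member minus its mean over the 6 libraries, by library, with black and grey bars for the list medians of 20 S phase and 18 mitosis genes. At left CLSPN, CHEK1, CHEK2, MDC1 and RNF168 spread from 1.27 to -1.49 around those medians, and at right ATM, ATR, RNF8, TP53BP1 and RIF1 stay between -0.37 and 0.29.

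The other genes of the pathway were taken from 5 lists of 60 genes, 58 of them tested (ATRIP matched 2 entries and SHLD3 none). In edgeR 8 of the 58 were lower and 1 was higher, and with the block 19 were lower and 5 higher, with a median log2 fold change of -0.18. Beside these stand the shares of all tested genes given above, 4.88% lower and 2.72% higher in edgeR, and 14.9% and 11.2% with the block. In the lists of 17 and 11 genes below, the 1 lower call is near the edgeR share and is not a result about the list. With the block, the 5 higher calls of the 58 and the 1 higher call in the list of 7 genes are near the share. The same holds with the block for the 2 lower and 2 higher calls in the list of 17. These too are not results about the lists. Without knockdown replicate 2, knockdown replicate 3 or control replicate 1 the 8 became 0, and they became 5 without knockdown replicate 1 and 4 without control replicate 2 or 3.

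The list of ATR activation and CHK1 signalling held 4 of the 8 lower calls among 14 tested genes (8 with the block, 0 higher in either fit, median -0.49). PKMYT1, a kinase that restrains CDK1, fell from 33.4 ± 12.8 to 12.0 ± 3.77 CPM with an adjusted p of 0.0282 in edgeR (log2 fold change -1.47, SE 0.32). RHNO1, which binds the 9-1-1 clamp, fell by 0.98 (adjusted p 0.0208). TIMELESS and TIPIN, the fork protection pair that travels with Claspin, fell by 0.96 (adjusted p 0.0492) and 0.72 (0.0477), both just inside the threshold. TIPIN was not called with RLE scaling (0.0507), upper quartile scaling (0.0732), a filter of 1 CPM in 3 libraries (0.0542) or limma-voom (0.0597). TIMELESS was not called with upper quartile scaling (0.0579) or that filter (0.0512). The ATR activators TOPBP1 and ETAA1 were at -0.51 and -0.14 without a call, and TOPBP1 was called with the block (adjusted p 0.00185). None of the 4 edgeR calls in this list held when knockdown replicate 2 or 3, or control replicate 1, was dropped.

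Among 9 genes that activate or damp ATM, edgeR made 0 calls (2 genes had an unadjusted p under 0.05) and limma-voom made 0. DESeq2 called 1 higher, and edgeR with the block called 2 lower and 2 higher. PPM1D, the phosphatase WIP1 that reverses ATM's phosphorylations, had 40.9 ± 6.93 CPM in control and 63.1 ± 10.3 in knockdown, without overlap (0.62, SE 0.17, adjusted p 0.0608, edgeR; 0.000685 with the block). H2AX, the histone that ATM marks, had a log2 fold change of -0.66 (adjusted p 0.318; 0.000396 with the block). The ubiquitin ligase PELI1 was at 0.46 (0.126; 0.0364 with the block) and ATMIN at -0.32 (0.286; 0.0398 with the block). MRE11, RAD50 and NBN, the complex that brings ATM to breaks, were at -0.11, 0.25 and -0.04 and were called in neither fit.

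In ubiquitin signalling around RNF8 and RNF168, 1 of 17 genes was lower and 1 higher (2 and 2 with the block, median -0.08). USP3, a deubiquitinase that removes the mark, rose from 96.5 ± 3.50 to 137 ± 9.33 CPM with an adjusted p of 0.0316 in edgeR (0.50, SE 0.11), and this call needed all 6 libraries (up to 0.126 when any was dropped). L3MBTL2, which RNF8 modifies to bring in RNF168, fell from 100 ± 12.1 to 65.6 ± 5.81 CPM with an adjusted p of 0.029 (-0.61, SE 0.13), and it was no longer called when knockdown replicate 2 or 3, or control replicate 1 or 3, was dropped (up to 0.13). KDM4A, a demethylase whose reader domain competes with 53BP1 for H4K20 methylation, was at 0.44 (adjusted p 0.0569; 0.00463 with the block), and KMT5A, which places the first methyl group there, was at -0.32 (0.169; 0.029 with the block). The ubiquitin-conjugating enzyme UBE2N, which works with RNF8, was at -0.17 (0.53) and was not called with the block.

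Downstream of 53BP1 and RIF1, 1 of 11 genes was lower and 0 were higher (4 lower with the block, median -0.23). MAD2L2, the REV7 subunit of shieldin, fell from 25.5 ± 3.00 to 15.1 ± 2.90 CPM with an adjusted p of 0.0425 in edgeR (-0.76, SE 0.19), and this call too needed all 6 libraries (up to 0.126) and was lost with upper quartile scaling (0.0574). The shieldin subunits SHLD1 and SHLD2 were at -0.23 and -0.14 and were not called. PAXIP1 (PTIP), which 53BP1 recruits, was at -0.35 (0.126; 0.0271 with the block). Of the PP1 phosphatase subunits, PPP1CB was at -0.48 (0.0506; 0.00744 with the block) and PPP1CC at -0.42 (0.133; 0.0114 with the block).

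In the BRCA1-A complex, which binds the ubiquitin mark through RAP80 (UIMC1), 2 of 7 genes were lower and 0 were higher (3 and 1 with the block, median -0.25). BRCA1 fell from 115 ± 25.3 to 59.1 ± 17.6 CPM with an adjusted p of 0.045 in edgeR (-0.96, SE 0.24), and BARD1, its partner, from 234 ± 17.0 to 169 ± 9.33 CPM (-0.47, SE 0.12, adjusted p 0.0447). Dropping knockdown replicate 2 or 3 or control replicate 1 or 2 ended the call of BRCA1 (up to 0.132), and dropping any library apart from control replicate 2 ended that of BARD1 (up to 0.179). Upper quartile scaling ended both calls (0.0523 for BRCA1 and 0.103 for BARD1), and BARD1 was also not called with RLE scaling (0.0608) or the filter of 1 CPM in 3 libraries (0.0632). BABAM1 was at -0.55 (0.0902; 0.00564 with the block) and the scaffold ABRAXAS1 at 0.42 (0.156; 0.0142 with the block). UIMC1 had a log2 fold change of 0, with 47.9 CPM in control and 48 in knockdown.

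**Figure D4:**
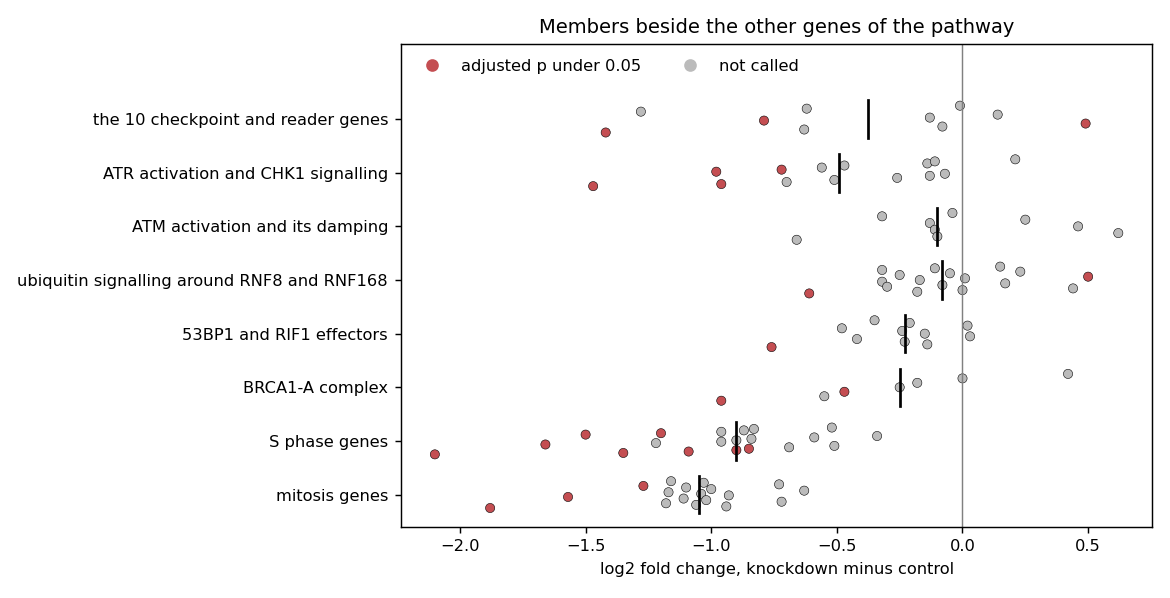
Log2 fold change (knockdown minus control) of each tested gene, by list, with genes past an adjusted p of 0.05 in red, others in grey, and the list median as a black bar; vertical scatter within a list has no meaning. The ATR list has its median at -0.49 and 4 red points below 0, and the lists around ATM and the ubiquitin ligases have medians of -0.10 and -0.08.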

How the data were processed

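The deposited table gave raw counts of reads for each gene, made by the authors with featureCounts (Subread 1.6.5) after STAR 2.5 on hg38, per the submitters' processing notes, which also name edgeR 3.20.8. The exon length in the deposited table served only for FPKM. The annotation release and the strand setting are not given in the sources used here. The main test was edgeR 4.0.16 (R 4.3.3): TMM scaling, filterByExpr, quasi-likelihood F test, two-sided, Benjamini-Hochberg adjustment over all 21101 tested genes, SE from the fitted coefficient and its F statistic. Alternatives were RLE and upper quartile scaling, no filter, a filter of 1 CPM in 3 libraries, DESeq2 1.42.0, limma-voom 3.58.1, a replicate block and leaving out each library. The fits were tested on simulated counts first. Gene types came from GENCODE 29, promoter windows from RefSeq.

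The members and lists were chosen with earlier results of these data known. Named beside the 10 members were WDR77, genes overlapping a member, the 4 genes of each pathway list and 2 of each cell cycle list with the smallest p, and others chosen after their values were seen: TOPBP1, ETAA1, MRE11, RAD50, NBN, UBE2N, SHLD1, SHLD2 and UIMC1. The titles give only replicate numbers, so the pairing of libraries with equal numbers was inferred from these same data. Deviations from the group mean had correlations of 0.554, 0.381 and 0.358 for equal numbers and -0.39 to 0.0602 for unequal ones. Deviations within a group cancel out, so the values for equal and unequal numbers depend on each other. The fit with the block had 2 residual degrees of freedom, against 4 without it. With 3 against 3 libraries, an exact permutation test of a ratio cannot go below 0.10, so none was run. Further markers are not reported here.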

Additional observations from a re-analysis of the deposited data

How the results depend on the processing

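Over 10 members and 13 alternatives, 105 of 130 values kept direction and call, 11 lost a call, 7 gained one and 7 changed sign. The sign changes were in ATR (0.05 with upper quartile scaling, -0.14 to 0.03 with 1 library left out) and RNF8 (0.11 with upper quartile scaling, 0.03 with the filter of 1 CPM in 3 libraries, -0.17 to 0.16 with 1 library left out), neither called. Upper quartile scaling moved the median of all tested genes by 0.12, and with it 722 genes were lower and 894 higher, against 1029 and 574 with TMM. The member median of -0.37 became -0.25 there, and -0.50 to -0.14 with 1 library left out. Lower members were 5 without a filter and 5 with the replicate block, and 0 to 2 with 1 library left out, where higher members were 0 each time. All genes lower were 1812 without a filter, 3148 with the replicate block and 329 to 923 with 1 library left out, and genes higher were 1336, 2358 and 168 to 500. Lower pathway genes were 3 with upper quartile scaling, 13 without a filter, 5 with the 1 CPM filter, 19 with the block and 0 to 5 with 1 library left out. Higher pathway genes were 3, 2, 3, 5 and 0 to 1, and 2 with DESeq2. Leaving out a library means fewer samples; for the other settings the cause was not tested. The block added 3 member calls, CHEK1, CHEK2 and CLSPN, and changed no other member call; the fit without a filter added the same 3. Depth did not leave any member untested, the lowest count being 199 reads for CLSPN in knockdown replicate 3.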

Other observations

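For each member, the coding gene of at least 5 CPM with the most similar values over the 6 libraries was sought among 10648 genes, by Pearson correlation of log2 CPM, given as a description since the libraries fall into 2 groups. CLSPN was closest to ATAD2 (0.999), CHEK2 to WDR76 (0.999), CHEK1 to the kinase gene WEE1 (0.994), MDC1 to the proliferation marker MKI67 (0.996) and RNF168 to BAZ1B (0.999). ATM was closest to MANBA (0.998), TP53BP1 to TNFRSF21 (0.997), RIF1 to IPPK (0.992), RNF8 to IVNS1ABP (0.99) and ATR to KTI12 (0.981). Correlations over 0.95 were reached by 649 genes for RNF168, 423 for CHEK2, 391 for CLSPN, 269 for CHEK1, 143 for ATM and 140 for MDC1. For RNF8, TP53BP1, RIF1 and ATR these were 58, 35, 22 and 9. The closest gene is thus 1 of many alike for most members. It also need not change by as much, as with BAZ1B (log2 fold change -0.34, RNF168 -0.79) and TNFRSF21 (0.71, TP53BP1 0.14).

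The 6-base word CTCTGT, chosen with earlier results of these data known, was found in an annotated 3' UTR of all 10 members. Places were counted over the 3' UTRs of all annotated coding transcripts of a gene, so they need not lie in its longest one. It was at 7 places for ATM, which rose, and at 4 for MDC1, 2 for RNF168 and 1 each for CHEK1, CHEK2 and CLSPN. For ATM the places at 108235900, 108236369 and 108295359 lie far before the gene's end at 108369102. For MDC1, on the minus strand, the place at 30713668 lies far before the end at 30699807. RNF8 had it at 6 places, ATR at 5, TP53BP1 and RIF1 at 4 each, and WDR77 at 0. The longest 3' UTRs of the members ran from 154 bases for CHEK2 to 7101 for RIF1. The word is in 53.7% of 13305 coding genes searched, whose median log2 fold change was -0.07 with the word and -0.02 without it, at median longest 3' UTRs of 2260 and 643 bases.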
